A study of Mus musculus with 28 samples.

Results

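Nanos2, Nanos3 and Dnd1 encode 3 RNA-binding proteins of the germ line, and their transcripts were followed across 14 groups of mouse cells and tissue on 28 single-colour Agilent arrays, 2 arrays per group. The genes were chosen by symbol: each array probe was named through the RefSeq accession in its annotation, which gave 9 probes for these 3 genes, 3 probes each, among 43289 probes kept and 13024 named genes. None of the 9 probes was removed for uneven spots.

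The cultured groups were female and male embryonic germ (EG) cells, female (no5) and male (TMA5) embryonic stem (ES) cells, and male germline stem (GS) cells. EG cells are lines derived from primordial germ cells (PGC); these came from 12.5 dpc PGC of Rb(X.2)2Ad X 129/Sv mice. The female ES line was of the 129/Sv strain, and the male one came from an F1 hybrid of TgN (deGFP)20Imeg and MSM/Ms mice. The GS cells, spermatogonial cells kept in long-term culture, were of the DBA/2 strain, and whole adult testis came from C57BL/6J mice. PGC were taken from males and females at E10.5, E13.5 and E17.5 in the BDF1 x TgN(deGFP)18Imeg background. Spermatogonia and oogonia came from BDF1 x Tg(Mvh-Venus)1Rbrc animals, whose Venus reporter is named after Mvh, an older name of the germ cell gene Ddx4; their ages are not given in the sources used here. Every PGC, spermatogonium and oogonium group thus carried a fluorescent transgene. Apart from the female and male EG lines, which share a strain, each line or tissue stands for its own strain. Strain, reporter, slide and cell type cannot be told apart between these sources. The labels do not say whether the arrays of a group stem from different animals or cultures, so p-values measure the spread between arrays, which may be technical.

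NANOS proteins carry a pair of zinc fingers and bind target messenger RNAs together with partner proteins, and NANOS2 recruits the CCR4-NOT deadenylase complex, which shortens poly(A) tails and marks the transcript for decay. In the mouse, NANOS3 is needed for the survival of migrating PGC of both sexes, whereas NANOS2 acts in fetal male germ cells, where it restrains meiosis and promotes the male pathway, and later in undifferentiated spermatogonia. DND1, a protein with RNA recognition motifs, binds NANOS2 and is loaded with it onto target RNAs, and its loss in the mouse depletes PGC and, on some 129 backgrounds, leads to testicular teratomas.

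The series belongs to a study of DNA methylation in PGC, so the bases just before the start of each NANOS gene are shown first, with every CpG, the dinucleotide that carries most DNA methylation in mammals, in capitals. The sequences are those of RefSeq on GRCm38.p6, each the 250 bases before the annotated start, read 5′ to 3′ on the gene's strand: chr7:18987274-18987523, plus strand, for Nanos2, chr8:84176553-84176802, minus strand, for Nanos3, and chr19:60755737-60755986, plus strand, for Nanos1, a relative of both. No promoter of Dnd1 is shown.
Nanos2: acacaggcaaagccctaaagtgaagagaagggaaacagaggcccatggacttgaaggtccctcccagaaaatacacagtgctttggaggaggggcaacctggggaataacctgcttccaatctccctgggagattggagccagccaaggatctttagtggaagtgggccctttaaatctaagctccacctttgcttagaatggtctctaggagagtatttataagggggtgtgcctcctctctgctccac
Nanos3: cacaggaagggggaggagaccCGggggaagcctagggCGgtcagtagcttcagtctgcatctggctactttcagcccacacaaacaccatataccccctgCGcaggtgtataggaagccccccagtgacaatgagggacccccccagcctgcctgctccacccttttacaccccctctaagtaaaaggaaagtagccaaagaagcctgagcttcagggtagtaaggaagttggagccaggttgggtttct
Nanos1: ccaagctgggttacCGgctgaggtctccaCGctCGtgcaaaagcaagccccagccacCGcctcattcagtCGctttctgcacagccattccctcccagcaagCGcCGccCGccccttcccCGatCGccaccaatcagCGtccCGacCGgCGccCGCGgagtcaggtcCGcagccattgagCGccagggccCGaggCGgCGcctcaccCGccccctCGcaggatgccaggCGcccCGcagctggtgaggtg
The Nanos2 stretch holds 0 CpG, as do 7.87% of 32851 RefSeq promoter windows of this length. The Nanos3 stretch holds 3, and 37.8% of windows hold as few or fewer. The Nanos1 stretch holds 25, and 10.7% of windows hold as many or more. The letters TATAA, searched on both strands, occur in 22.8% of the windows. In Nanos2 they begin 31 bases before the start on the gene's strand, overlapping by 4 bases a match on the opposite strand, and they are not in the Nanos3 and Nanos1 windows. No methylation value was used here, and the sequences describe the genes only.

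Levels are given as log2 processed signal minus the array's 75th percentile, taken over the 7286 probes detected on each of the 28 arrays, where detected means marked by the scanner software as well above background. A level of 0 therefore equals that percentile. Levels of different genes come from different probes and are not compared. Between 17.8% and 76.8% of probes were well above background per array, with the lowest share in male E10.5 PGC and the highest in testis. Of 5 germ cell markers on the arrays, 4 or 5 were well above background on every array. The EG and ES arrays had all 5, so this set does not tell germ cells from these lines. The summed linear level of 3 Y-linked genes was 0.119 to 0.316 in the male groups and at most 0.0251 in the female groups, so every array fitted its labelled sex. The 2 GS arrays stood apart from each other. Over the 6194 genes, named or unnamed, well above background on all 28 arrays, they correlated at 0.914, the lowest of the 14 groups. The summed level of 5 fibroblast and feeder markers was 21.0 in GS replicate 1 and 2.17 in GS replicate 2, while that of the germ cell markers was 4.27 and 10.4.

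Nanos2 was the most restricted of the genes. It was well above background on 8 of 28 arrays, with both arrays reaching that mark in 3 groups: male E13.5 PGC, GS cells and spermatogonia. Male E13.5 PGC had −0.16 and 0.01, far above every other array of the series. GS cells had −5.09 and −2.42, and spermatogonia had −4.78 and −4.69. In male E17.5 PGC it was −4.80 on replicate 1 and, not well above background, −6.40 on replicate 2. In female E13.5 PGC replicate 2 was measured at −7.34 and replicate 1, not well above background, read −7.12. In the other 9 groups, which are E10.5 PGC of both sexes, female E17.5 PGC, oogonia, both EG lines, both ES lines and testis, no array reached that mark, so these groups have no order among themselves.

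**Figure D1:**
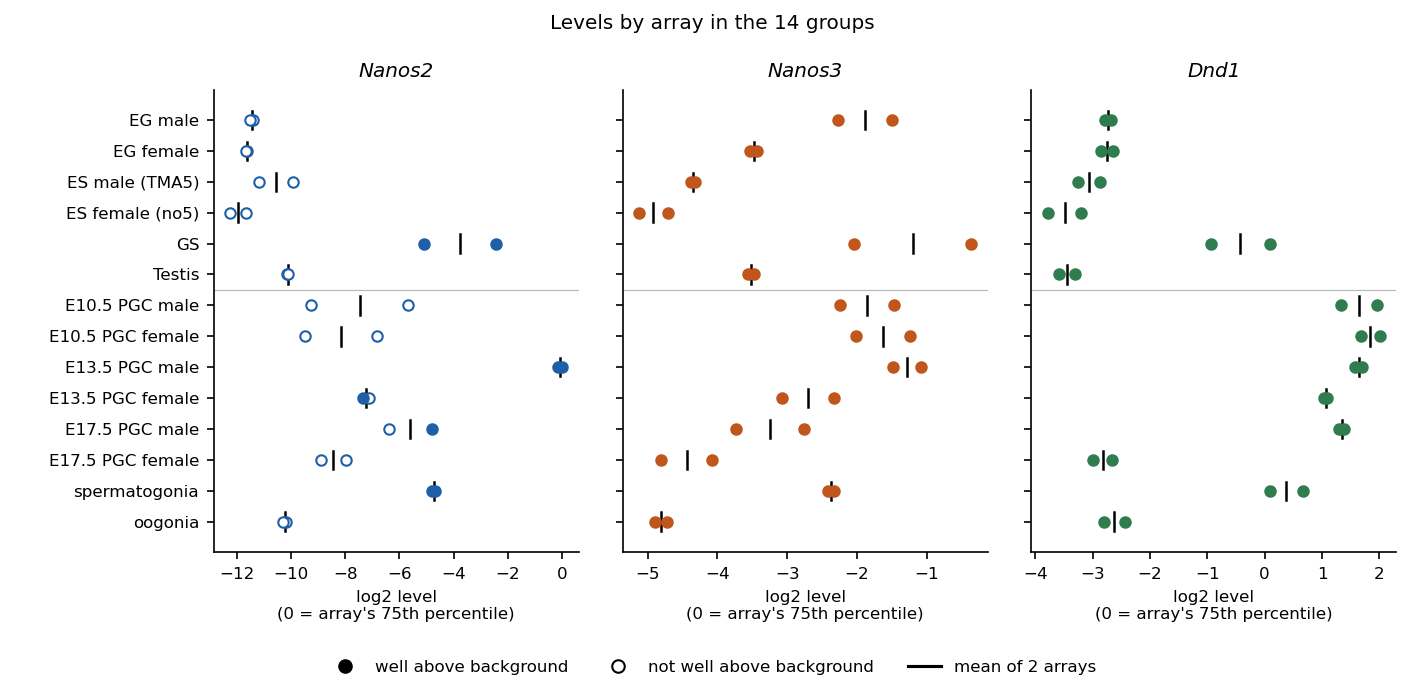
Log2 level (x axis, 0 is the array's 75th percentile) of Nanos2, Nanos3 and Dnd1 on each of the 2 arrays of the 14 groups, with the mean as a bar. Filled points are well above background and open points are not; Nanos2 has filled points in 5 groups, whereas Nanos3 and Dnd1 are filled in all 14. The x axes of the panels differ.

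Nanos3 was well above background on all 28 arrays and covered a narrower range, 3.72 log2 units between the highest and lowest group means. In PGC of both sexes at E10.5 it was −1.47 and −2.25 in males and −1.24 and −2.01 in females. At E13.5 it was −1.08 and −1.48 in males and −2.33 and −3.07 in females, and at E17.5 it was −2.76 and −3.74 in males and −4.07 and −4.81 in females. At E10.5 the sexes overlapped, and from E13.5 on every male array lay above both female arrays of its stage. Spermatogonia had −2.42 and −2.33, and oogonia had −4.89 and −4.72. Among the cultures GS cells had −2.04 and −0.36. Male EG cells had −2.27 and −1.50 and female EG cells −3.43 and −3.54. Male EG cells thus lay near E10.5 PGC, and female EG cells about level with testis, which had −3.48 and −3.57. ES cells were low, at −4.38 and −4.33 in the male line and −5.12 and −4.71 in the female line. Ordered by mean, the groups ran from GS cells, male E13.5 PGC and E10.5 PGC at the top to male ES cells, female E17.5 PGC, oogonia and female ES cells at the bottom, and the arrays of 11 of the 13 neighbouring pairs overlapped.

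Dnd1 was also well above background on all 28 arrays, with a range of 5.33 log2 units between the highest and lowest group means. Its groups fell into a high and a low set, whose nearest means, GS cells and oogonia, lay 2.20 apart. PGC at E10.5 had 1.96 and 1.34 in males and 2.01 and 1.68 in females. At E13.5 males had 1.58 and 1.70 and females 1.03 and 1.09. At E17.5 males had 1.38 and 1.30, against −2.99 and −2.66 in females. The male level was thus close to that of the earlier stages, and the female level was far below. Spermatogonia had 0.67 and 0.09, and oogonia had −2.44 and −2.81. GS cells had −0.94 and 0.09, the lowest of the high set. EG cells had −2.68 and −2.78 in the male line and −2.65 and −2.86 in the female line, close to oogonia and female E17.5 PGC. ES cells had −3.26 and −2.87 in the male line and −3.19 and −3.78 in the female line, and testis had −3.30 and −3.58. Of the 13 neighbouring pairs in the order of means, 8 overlapped, and no array lay between −0.94 and −2.44.

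Each comparison below comes from 1 limma fit of all 28 arrays, with p-values adjusted by Benjamini and Hochberg over all genes tested and a threshold of 0.05; differences are the first group minus the second on the log2 scale, ± their standard error. A gene, named or unnamed, was tested where both arrays of at least 1 compared group had it well above background. Of 17 comparisons, Nanos2 could be tested in 10 and passed in 8, Nanos3 was tested in 17 and passed in 5, and Dnd1 was tested in 17 and passed in 7. Nanos2 entered only comparisons that include male E13.5 PGC, GS cells or spermatogonia, the groups where it was high. Its count is therefore shaped by the filter and is not comparable with the other counts. Over the 17 comparisons, 0.0114% to 49.4% of all genes tested passed. Where every probe of a gene stayed below that mark on all arrays of a group, the difference is a bound, given as "at least N-fold": the mean of the bright group against the lowest signal well above background on each dim array, or the dim reading where that was higher. An adjusted p beside a bound belongs to the fitted difference, which uses the dim readings as they are, and does not test the bound.

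**Figure D2:**
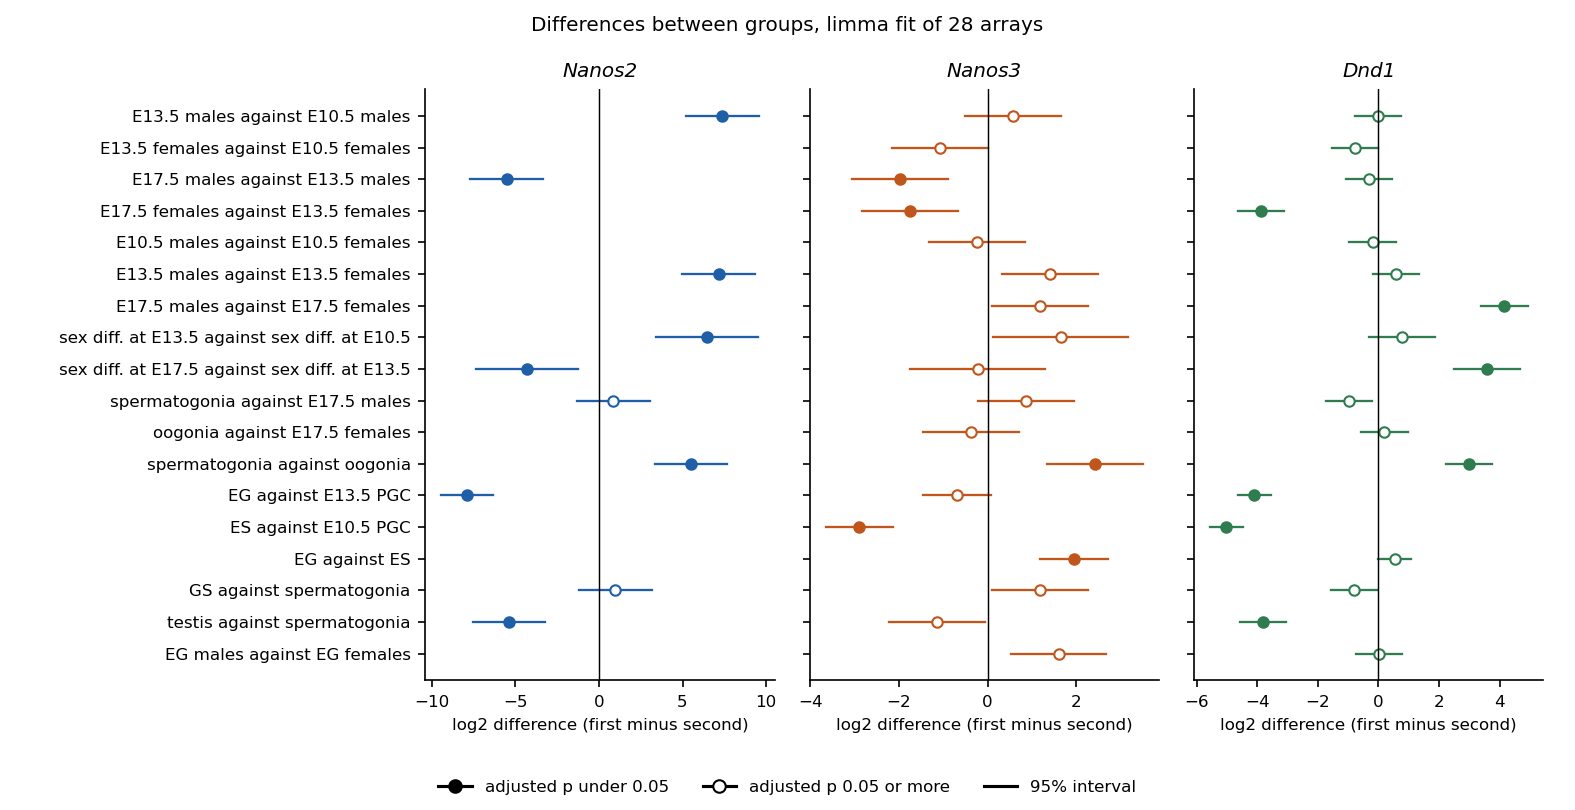
Log2 difference (x axis, first group minus second) with its 95% interval for Nanos2, Nanos3 and Dnd1 in each comparison tested. Filled points have an adjusted p under 0.05; Dnd1 differs most in ES cells against E10.5 PGC (−5.02), next in E17.5 males against females (4.16) and EG cells against E13.5 PGC (−4.09), and by 0.20 in oogonia against E17.5 females. Nanos2 points against groups not well above background are fitted values, not bounds.

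In male PGC, Nanos2 rose at E13.5 over E10.5, when both E10.5 arrays were not well above background. It averaged −0.07 ± 0.12 at E13.5 and read −7.46 ± 2.54 at E10.5 (SD, n = 2 each), which makes it at least 40.1-fold higher at E13.5 (difference 7.39 ± 1.03, adjusted p = 0.000181). The difference was 5.51 between the replicate 1 arrays, scanned on one day, and 9.27 between the replicate 2 arrays, scanned on another, and leaving out 1 array gave 5.60 to 9.18. The call was lost with slide as a block in the PGC arrays alone, and in a fit of the compared groups alone. Nanos3 differed by 0.58 ± 0.51 (adjusted p = 0.480) and Dnd1 by −0.01 ± 0.36 (adjusted p = 0.993), neither past the threshold, with 95% intervals of −0.50 to 1.66 and −0.77 to 0.76. Of 10410 genes tested in this comparison, 15.9% passed.

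In female PGC over the same days none of the 3 genes passed. Nanos2 was not tested, since no group had it well above background on both arrays. Nanos3 was lower at E13.5 by 1.07 on average (difference −1.07 ± 0.51, adjusted p = 0.133), with no overlap between stages. Dnd1 differed by −0.78 ± 0.36 (adjusted p = 0.121), also without overlap. The share of all genes that passed was 26%. The mean of the 3 Nanos3 probes gave −1.76 for this difference, past the threshold (adjusted p = 0.0153), and the probes not used gave −1.35 and −2.87.

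Nanos2 was lower again in male PGC at E17.5. The level fell by 5.52 ± 1.03 relative to E13.5 males (adjusted p = 0.000584), with differences of −4.64 between replicate 1 arrays and −6.41 between replicate 2 arrays, and 1 of 2 E17.5 arrays still measured it. Nanos3 fell too, with a difference of −1.97 ± 0.51 (adjusted p = 0.0062), which without male E17.5 replicate 2 was −1.48 and did not pass (adjusted p = 0.0921). Dnd1 stayed near its E13.5 level, with a difference of −0.30 ± 0.36 that did not pass (adjusted p = 0.516; 95% interval −1.07 to 0.46). Here 41.8% of 15584 genes passed.

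In female PGC both Dnd1 and Nanos3 fell at E17.5 relative to E13.5, and Dnd1 by more. Dnd1 averaged −2.82 ± 0.23 at E17.5 and 1.06 ± 0.04 at E13.5 (SD, n = 2 each), a difference of −3.89 ± 0.36 or 14.8-fold (adjusted p = 1.32e-06), and it was −4.02 and −3.75 between the arrays of each scan day. Nanos3 fell by 1.74 ± 0.51 (adjusted p = 0.0159), nearly the same on both scan days (−1.75 and −1.74). That call was lost without female E13.5 replicate 1 (−1.37, adjusted p = 0.151) and without female E17.5 replicate 2 (−1.38, adjusted p = 0.128). Of all genes tested, 32.6% passed. The summed level of 4 blood and endothelium markers was 16.6 and 2.78 in E17.5 females, with 2 of the 4 well above background on each array, against 0.42 and 0.016 in E13.5 females, with 1 of the 4. That of 4 oocyte markers was 1.44 and 1.46 in E17.5 females and 0.0408 and 0.0331 in E13.5 females, and that of the germ cell markers was 10.4 and 10.9 in E17.5 females and 16.3 and 17.7 in E13.5 females. The part of these markers in the stage differences was not tested.

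Male and female PGC were then compared at each stage. At E10.5 no member was past the threshold: Nanos3 differed by −0.23 ± 0.51 and Dnd1 by −0.19 ± 0.36 (95% intervals −1.31 to 0.85 and −0.96 to 0.57), and 0.0114% of genes passed. At E13.5 the male excess that passed was in Nanos2, at 7.15 ± 1.03 (adjusted p = 0.000338), where 12.1% of genes passed. Nanos3 was higher in males by 1.42 ± 0.51 without passing (adjusted p = 0.0833), and it passed as the mean of its 3 probes (1.87, adjusted p = 0.0206). Dnd1 differed by 0.58 ± 0.36 (adjusted p = 0.334).

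At E17.5 the male excess that passed was in Dnd1, which was 17.9-fold higher in males (difference 4.16 ± 0.36, adjusted p = 3.63e-07), among 49.4% of genes that passed. Nanos3 was higher in males by 1.19 ± 0.51 and did not pass (adjusted p = 0.0633), but it did with scan day as a block in a fit of the 12 PGC arrays (adjusted p = 0.0324) and without male E17.5 replicate 2 (1.68, adjusted p = 0.044). Nanos2 was measured on 1 of 4 arrays and was not tested. Sertoli cell markers, of which 7 are on the arrays, summed to 7.63 and 3.63 in E17.5 males and to 0.116 and 0.224 in E17.5 females, and to 1.89 and 0.827 in E13.5 males and to 0.0514 and 0.0479 in E13.5 females. Their part in the sex differences was not tested, and in these bulk samples fewer cells of a type and less RNA per cell cannot be told apart.

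The stages themselves were compared through the difference between the sex differences. For Dnd1 the male minus female difference was larger at E17.5 than at E13.5 by 3.58 ± 0.51 (adjusted p = 0.000113), with 3.81 and 3.35 on the separate scan days, while 26.2% of genes passed. For Nanos2 the same term was −4.31 ± 1.45 (adjusted p = 0.0381), and the term for E13.5 against E10.5 was 6.47 ± 1.45 (adjusted p = 0.0267), where 2.65% of genes passed. Both Nanos2 terms include groups in which the gene was not well above background. With scan day as a block in the PGC arrays alone they no longer passed (adjusted p = 0.0940 and 0.288), and the first was also lost on leaving out any of 7 of its 8 arrays and the second on leaving out any of 4. Nanos3 gave −0.23 ± 0.72 and 1.65 ± 0.72 for the 2 terms, neither past the threshold (adjusted p = 0.847 and 0.245).

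Spermatogonia and oogonia differed in all 3 genes. Nanos2 was at least 13.8-fold higher in spermatogonia, where it averaged −4.74 ± 0.06, than in oogonia, where it read −10.24 ± 0.07 and was not well above background (SD, n = 2 each; adjusted p = 0.000387). Dnd1 was higher by 3.0 ± 0.36, or 8.0-fold (adjusted p = 6.4e-06). Nanos3 was higher by 2.43 ± 0.51, or 5.39-fold (adjusted p = 0.00101). In this comparison 46.8% of genes passed, so a call as such was common. The names of both groups are those of the labels. The 4 oocyte markers summed to 3.30 and 3.39 in oogonia and to 0.239 and 0.225 in spermatogonia. Blood and endothelium markers summed to 3.78 and 0.136 in oogonia and to 1.41 and 1.22 in spermatogonia. The part of these markers in the differences was not tested. The deposited values, centred on each array's median, gave 1.21 for Nanos3 and no call (adjusted p = 0.201).

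Against male E17.5 PGC, spermatogonia passed in none of the genes (11.8% of all genes passed). Nanos2 differed by 0.86 ± 1.03 (adjusted p = 0.635), Nanos3 by 0.88 ± 0.51 (adjusted p = 0.284) and Dnd1 by −0.96 ± 0.36 (adjusted p = 0.0912). The mean of the 3 Dnd1 probes gave −1.25, past the threshold (adjusted p = 0.0247). Oogonia against female E17.5 PGC gave −0.36 ± 0.51 for Nanos3 (adjusted p = 0.682) and 0.20 ± 0.36 for Dnd1 (adjusted p = 0.760), with overlapping arrays in both, among 14.9% of genes that passed. The Nanos3 value depended on probe and scaling: the mean of its 3 probes gave −1.49 with a call (adjusted p = 0.0495), whereas it was 0.44 with the deposited values, 0.18 when the percentile was taken over all probes and 0.21 after quantile normalization.

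Dnd1 was lower in both kinds of pluripotent line than in PGC, Nanos2 was lower in EG cells than in E13.5 PGC, and Nanos3 differed between EG and ES cells. EG cells against E13.5 PGC of both sexes, with each sex given equal weight, had Nanos2 lower (fitted difference −7.90 ± 0.73, adjusted p = 4.38e-07). No EG array was well above background, and against the lowest such signal the difference was 61.8-fold. The PGC side averages males at −0.07 and females at −7.23, where 1 of 2 arrays was well above background. It thus holds a background reading itself, and the 61.8-fold is not a strict bound. EG cells were not compared with the PGC of each sex separately. Dnd1 was lower by 4.09 ± 0.25, or 17.1-fold (adjusted p = 9.02e-09). For Nanos3 the difference was −0.69 ± 0.36 (adjusted p = 0.141; 95% interval −1.46 to 0.07) and the arrays overlapped. Of all genes, 40.4% passed.

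In ES cells against E10.5 PGC, Dnd1 was lower by 5.02 ± 0.25, or 32.5-fold (adjusted p = 1.59e-09), and Nanos3 was lower by 2.89 ± 0.36, or 7.42-fold (adjusted p = 1.55e-05), where 35.7% of genes passed. Between the lines themselves a call was rarer, at 4.91% of genes. Nanos3 was higher in EG than in ES cells by 1.95 ± 0.36, or 3.87-fold (adjusted p = 0.00645), and no array of the sets overlapped. Each kind was a male and a female line. Here, as in the comparisons of lines with PGC, the p-value measures the spread between arrays and not between lines. Means were −1.88 in male and −3.48 in female EG cells, and −4.35 in male and −4.92 in female ES cells. When all signals below a common floor were raised to it, this difference shrank and lost its call. Dnd1 differed by 0.54 ± 0.25 without passing (adjusted p = 0.253). Male against female EG cells, a comparison added after these levels were seen, gave 1.60 ± 0.51 for Nanos3, which did not pass (adjusted p = 0.214), where 0.686% of genes passed.

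GS cells did not differ from spermatogonia past the threshold in any of the 3 genes, in a comparison where 23% of genes passed. In each gene GS replicate 1, the array with the high fibroblast and feeder signal, read lower than GS replicate 2. Nanos2 was −5.09 and −2.42 in GS cells and −4.78 and −4.69 in spermatogonia, a difference of 0.98 ± 1.03 (adjusted p = 0.555) that turned to −0.35 without GS replicate 2. Nanos3 differed by 1.17 ± 0.51 (adjusted p = 0.112), and by 2.01 with a call without GS replicate 1 (adjusted p = 0.0195). Dnd1 differed by −0.80 ± 0.36 (adjusted p = 0.125), and by −1.32 with a call without GS replicate 2 (adjusted p = 0.0234); 1 of its 3 probes pointed the other way, at 0.61. The part of the feeder signal in these values was not tested.

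Whole testis, which holds all stages of spermatogenesis and somatic cells, was lower than spermatogonia in Nanos2 and Dnd1. Nanos2 was at least 41.1-fold lower (fitted difference −5.39 ± 1.03, adjusted p = 0.000414), and Dnd1 was lower by 3.81 ± 0.36, or 14.1-fold (adjusted p = 4.54e-07). Nanos3 was lower by 1.15 ± 0.51 and did not pass (adjusted p = 0.0811), though it passed with quantile normalization (−1.84, adjusted p = 0.0151) and with the percentile over all probes (−1.70, adjusted p = 0.0279). In testis 3 spermatid markers summed to 25.6 and 26.8, against 0.18 and 0.147 in spermatogonia. Here 43.7% of genes passed.

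The 3 probes of each gene were compared with one another. Their pairwise correlations over the 28 arrays were 0.913 to 0.993 for Nanos2, 0.912 to 0.974 for Nanos3 and 0.963 to 0.997 for Dnd1; the arrays share labelling and scaling, and the values describe the probes only. In E13.5 males against females the Nanos2 probes gave 7.15, 6.76 and 6.12, and all passed. In E17.5 males against females the Dnd1 probes gave 4.16, 4.52 and 4.64, and all passed. The Nanos3 probes gave 1.95, 2.03 and 2.78 in EG against ES cells, all past the threshold, but in E13.5 males against females they gave 1.42, 1.61 and 2.58, and the first did not pass (adjusted p = 0.083, 0.034 and 0.0094). Signs differed between tested probes of Dnd1 in GS cells against spermatogonia (−0.80, −0.79 and 0.61) and in E13.5 against E10.5 males, where the used probe gave −0.01 and another 0.42. The dimmest Nanos2 probe was well above background on 4 arrays, against 8 for the probe used, and in E17.5 males against females, where Nanos2 was not tested, it read 0.04, against 2.84 for the probe used.

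**Figure D3:**
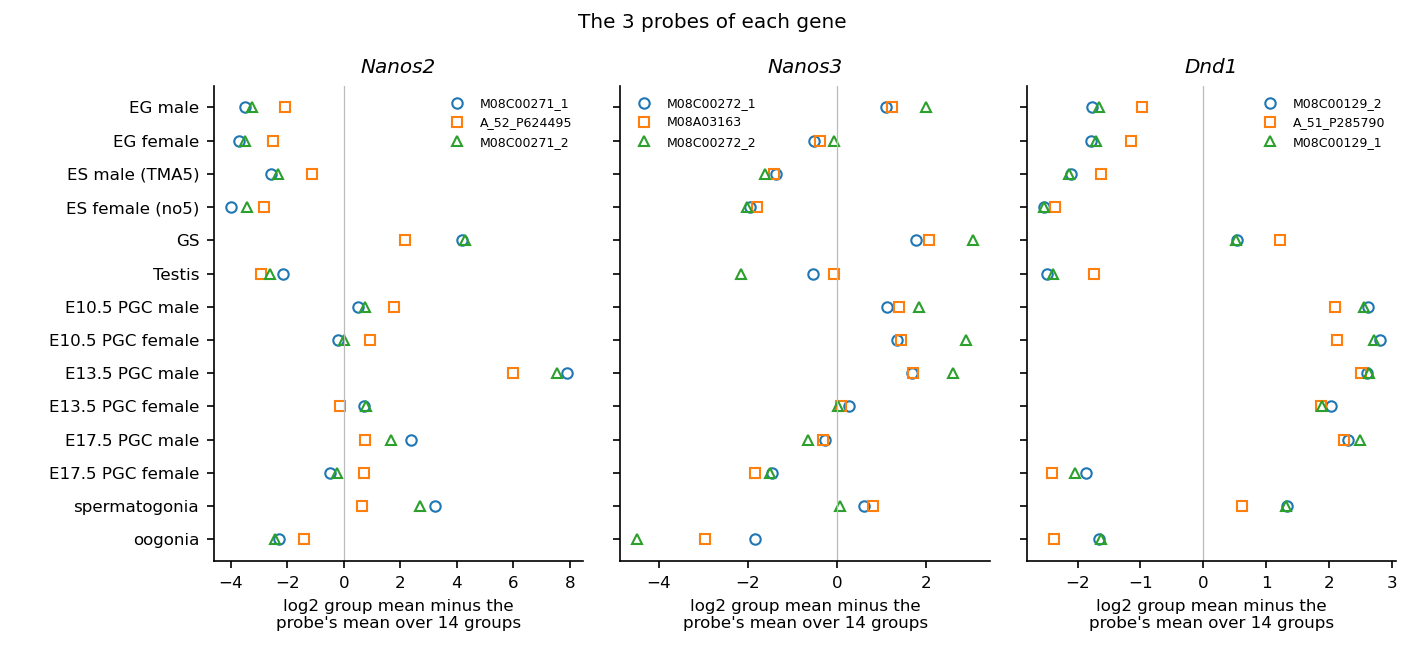
Group means of the 3 probes of each gene over the 14 groups, each probe centred on its own mean (x axis, log2 units). Each Nanos2 probe is highest in male E13.5 PGC, 1 Dnd1 probe puts GS cells above spermatogonia where the other 2 put them below, and the widest spread between probes is in oogonia for Nanos3.

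Nanos1, the third mouse NANOS gene, is dispensable for the fertility of mice and served as a relative outside the set. Its level ran the opposite way between the sexes. Oogonia had 0.28 and 0.31, the highest of the 14 groups, and spermatogonia had −1.89 and −1.66, a difference of −2.07 ± 0.50 for spermatogonia against oogonia (adjusted p = 0.003). In PGC, the male minus female difference was −2.97 ± 0.50 at E13.5 (adjusted p = 0.00123) and −3.26 ± 0.50 at E17.5 (adjusted p = 7.87e-05). At E13.5 another of the 4 Nanos1 probes passed too (−3.39), while of the other two 1 gave −1.22 and did not pass (adjusted p = 0.306) and 1 gave −0.94 and was not tested. At E17.5 all 4 passed, with differences of −4.15 to −3.26. In female PGC Nanos1 rose at E13.5 over E10.5 by 2.70 ± 0.50 (adjusted p = 0.00112) and at E17.5 over E13.5 by 1.88 ± 0.50 (adjusted p = 0.00915). The change in males between E13.5 and E17.5, 1.59 ± 0.50 (adjusted p = 0.0191), was not shared by its 4 probes: another gave 1.65, and the other two gave −0.40, which did not pass, and −1.65, which was not tested.

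None of the listed partners of NANOS2 that could be tested passed between the sexes at E13.5. Of 17 genes listed for the CCR4-NOT deadenylase, its TOB and BTG adaptors and the PUMILIO proteins, 13 were on the arrays. In E13.5 males against females, 11 were tested and 0 passed in limma, 0 of them at an unadjusted p under 0.05, with differences between −0.95 and 0.74 and a median of 0.23 (median of all genes −0.13); the deposited values, quantile normalization and the common floor each called 1. Of 11 decapping and P-body genes 7 were tested there, and 0 passed, again 0 at an unadjusted p under 0.05, with a median of 0.16; 1 passed without male E13.5 replicate 1. In GS cells against spermatogonia, 5 of the 13 CCR4-NOT and PUMILIO genes were higher and 1 lower (median 0.84, all genes 0.02), where 23% of all genes passed, and the 6 calls were 3 without GS replicate 1, 2 without spermatogonia replicate 1 and 3 without spermatogonia replicate 2. Btg2, an antiproliferative adaptor of the deadenylase, was higher in GS cells by 3.70 ± 0.52 (adjusted p = 0.000144), and Cnot2, a scaffold subunit, was lower by 1.59 ± 0.29 (adjusted p = 0.000947). In testis against spermatogonia 7 were higher and 3 lower of 13 (median 1.46, all genes 0.20), where 43.7% of all genes passed, among them the adaptor Tob1, higher by 2.59 ± 0.63 (adjusted p = 0.00284), and the catalytic subunit Cnot6l, which was lower by 2.36 ± 0.46 (adjusted p = 0.000478).

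Genes on either side of the male and female pathways were set beside Nanos2 at E13.5. Of 10 meiotic genes, 5 were lower in males than in females and none higher (median −2.18, all genes −0.13), where 12.1% of all genes passed, and without female E13.5 replicate 1 it was 3. Stra8, which licenses meiotic entry, differed by −8.31 ± 1.14 (adjusted p = 0.000217), Rec8, a meiotic cohesin, by −4.36 ± 0.47 (adjusted p = 3.02e-05), and Dmc1, a recombinase, by −3.62 ± 0.48 (adjusted p = 0.000173). Of 9 fetal male germ line genes tested, 5 were higher in males and none lower (median 3.53), against the same 12.1%. Lefty2, a Nodal antagonist, was at least 137.6-fold higher in males (adjusted p = 4.53e-06), and Lefty1, another, was higher by 7.42 ± 0.58 (adjusted p = 4.5e-06).

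By E17.5 in males, 4 of these 9 genes were higher and 4 lower than at E13.5 (median −0.06, all genes 0.50), where 41.8% of all genes passed. Lefty2 was at least 76.2-fold lower at E17.5 (adjusted p = 2.32e-06), as Nanos2 also was lower. Dnmt3l, the cofactor of de novo DNA methylation, was higher by 7.89 ± 0.83 (adjusted p = 4.3e-06).

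Early germ cell genes were set beside Dnd1 and Nanos3. In E17.5 against E13.5 females, 1 of 11 was higher and 9 were lower (median −5.39, all genes 0.12), where 32.6% of all genes passed. Tfap2c, a factor of PGC specification, was lower by 6.85 ± 0.50 (adjusted p = 1.15e-07), and Nanog, a pluripotency factor, was at least 18.0-fold lower (adjusted p = 2.93e-07). In E17.5 against E13.5 males, where Dnd1 did not pass, 10 of 11 were lower (median −1.99, all genes 0.50), where 41.8% of all genes passed, and 6 without male E13.5 replicate 2 or without male E17.5 replicate 1. Germ cell markers summed to 12.7 and 13.2 in E17.5 males and to 21.7 and 30.3 in E13.5 males, and the 4 blood and endothelium markers to 3.77 and 1.1 in E17.5 males and to 0.815 and 0.229 in E13.5 males. With the Sertoli cell markers given above, these moved with the stage, and their part was not tested. Dppa3, a maternal and PGC chromatin factor, was lower by 5.24 ± 0.37 (adjusted p = 1.89e-07). In ES cells against E10.5 PGC 8 of 11 were lower and none higher (median −1.63, all genes −0.29), where 35.7% of all genes passed, and Kit, the receptor for stem cell factor, was lower by 4.26 ± 0.23 (adjusted p = 3.62e-09).

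Genes of spermatogonial stem and progenitor cells numbered 13 on the arrays. In spermatogonia against oogonia 6 of 10 tested were higher and 2 lower (median 1.65, all genes 0.32), where 46.8% of all genes passed. Pou3f1, a factor of stem cell self-renewal in culture, was higher by 4.46 ± 0.42 (adjusted p = 5.47e-07), and Kit, which oocytes carry at high level, was lower by 4.90 ± 0.33 (adjusted p = 2.29e-08). In GS cells against spermatogonia 1 of 13 was higher and 1 lower (median −0.01), where 23% of all genes passed. Lin28a, a regulator of let-7 microRNAs, was higher (fitted difference 3.21 ± 0.54, adjusted p = 0.000569), with a bound of 2.88-fold. Lin28a averaged −5.28 in GS cells and read −8.49 in spermatogonia, where it was not well above background. Its sign turned with normexp background correction, so the bound depends on the processing. Foxo1, a stem cell factor, was lower by 1.29 ± 0.27 (adjusted p = 0.00263). In testis against spermatogonia 6 of 12 were lower and none higher (median −1.82, all genes 0.20), a share near the 43.7% of all genes that passed, and 3 without spermatogonia replicate 2 or without testis replicate 2; Pou3f1 was lower by 6.45 ± 0.42 (adjusted p = 1.06e-08). Of 7 apoptosis genes tested in E17.5 males against females, 3 were higher and 1 lower (median 1.17, all genes 0.27), a share near the 49.4% of all genes that passed. Bak1, a pore-forming protein of mitochondria, was higher in males by 1.45 ± 0.46 (adjusted p = 0.0168), and Bax, its relative, was lower by 1.02 ± 0.32 (adjusted p = 0.0149), but the 4 calls were 1 to 2 without female E17.5 replicate 1 or either male array, and 0 with the deposited values.

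The genes most like each member were found by Pearson correlation of the 14 group means over 11841 named genes, a description in which all points share arrays and scaling. For Nanos2 these were Gng13, a G protein subunit (0.887), Cnih3, a cornichon protein of glutamate receptors (0.883), Fdxacb1 (0.882), Hinfp, a transcription factor of histone H4 genes (0.871), and Wif1, a secreted Wnt inhibitor (0.865). For Nanos3 they were Nmi (0.869), Foxr1, a forkhead factor (0.839), Rassf5, a Ras association protein (0.839), Amot, which codes for angiomotin (0.818), and Serpinb8, a protease inhibitor (0.818). For Dnd1 they were Fut10, a fucosyltransferase gene (0.953), Rflna (0.944), Ehd3, a gene of endocytic transport (0.938), Serf2 (0.931), and Itgb3, an integrin subunit (0.917). Between the members the correlation was 0.743 for Nanos2 and Dnd1, 0.712 for Nanos3 and Dnd1 and 0.644 for Nanos2 and Nanos3. Dnd1 ranked 263 among the genes most like Nanos2. Since Nanos2 was well above background on 8 of 28 arrays, all its correlations rest partly on background readings. Cnih3, Wif1, Serpinb8, Rflna and Itgb3 were also below that mark on both arrays of several groups.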

How the data were processed

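Single-colour Agilent arrays of 14 groups, 2 arrays each, were read from the deposited scanner files. Per the file headers and the submitters' processing notes, the authors used Agilent Feature Extraction 10.5.1.1, whose processed signal intensity is already background-subtracted. Genome build and probe design notes are not given in the sources used here. The authors also deposited a log2 table, which equalled log2 processed signal minus the array's median within 0.00252 (column medians −7.34e-05 to 0.00251), so its scale and centring are known; it served as an alternative. Per the labels' protocols, 50 ng of RNA was labelled with Cy3.

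From the intensities, 1417 control spots and 514 of 43803 probes marked non-uniform were left out; no spot was saturated. Log2 signal was centred on the 75th percentile of the 7286 probes well above background on all arrays, since on 16 of 28 arrays fewer than 50% of probes were detected. RefSeq accessions named 16760 probes with 13143 symbols (GRCm38.p6 table), and 27043 probes stayed unnamed. Of several probes of a gene, the one with the highest mean was used, giving 38727 features. One limma 3.58.1 fit (R 4.3.3) of group means with 14 residual degrees of freedom gave all comparisons, with Benjamini-Hochberg adjustment; it was tested on simulated data. The number of arrays limits the precision.

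The members and lists were chosen with earlier results of these data known. Named genes were the members, the 5 genes most like each, and up to 4 passing genes of largest change per list and comparison, of which some are printed. Replicate numbers pair the PGC arrays: over 15 pairs of PGC groups, deviations of same-numbered arrays correlated at 0.306 to 0.796, and each number is also 1 scan day; in the other 8 groups the range was −0.168 to 0.208. Alternatives covered scaling, background, filter, floor, probe choice, blocks, the samples fitted and leaving out each array. The normexp alternative used median spot signals.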

Additional observations from a re-analysis of the deposited data

Results flagged for a closer look

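The sex difference of Dnd1 itself differed between stages. Male minus female was 4.16 at E17.5 and 0.58 at E13.5, and the test of the difference of these differences gave 3.58 ± 0.51 (limma, adjusted p = 0.000113), positive on both scan days. For Nanos2 the sex difference at E13.5 exceeded that at E10.5 by 6.47 ± 1.45 (adjusted p = 0.0267). For E17.5 against E13.5 it changed by −4.31 ± 1.45 (adjusted p = 0.0381). Neither Nanos2 value passed with scan day as a block, and both include arrays on which the gene was not well above background.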

How the results depend on the processing

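The replicate number was fitted as a block over all 28 arrays, although it pairs only the PGC arrays. It changed no call of the 3 genes (46 of 46 values kept direction and side of the threshold). Keeping the non-uniform probes changed none either. The cause of each change below was not tested, apart from the settings that use fewer arrays or genes by construction. With the deposited values, 40 of 46 values kept direction and call. Dnd1 turned sign in E13.5 against E10.5 males (0.020), E13.5 males against females (−0.47) and EG males against females (−0.094), Nanos3 turned in oogonia against E17.5 females (0.44) and in the interaction of E17.5 with E13.5 (0.096), and Nanos3 in spermatogonia against oogonia (1.21) lost its call. Quantile normalization turned Dnd1 in E13.5 against E10.5 males (0.063) and Nanos3 in oogonia against E17.5 females (0.21), and Nanos3 passed in testis against spermatogonia (−1.84). The percentile over all probes turned Nanos3 in oogonia against E17.5 females (0.18), while Dnd1 in E13.5 against E10.5 females (−1.15) and Nanos3 in testis against spermatogonia (−1.70) passed. Normexp correction turned Dnd1 in E13.5 against E10.5 males (0.22), Nanos2 in spermatogonia against E17.5 males (−0.071) and in GS cells against spermatogonia (−0.19), and Lin28a in GS cells against spermatogonia (−0.66). It ended the calls of Nanos3 in E17.5 against E13.5 females (−1.0) and of the Nanos2 interaction of E13.5 with E10.5 (3.96), whereas Nanos3 in EG cells against E13.5 PGC (−0.79) and in testis against spermatogonia (−1.30) and Dnd1 in GS cells against spermatogonia (−1.02) passed. The mean of all probes turned Dnd1 in E13.5 against E10.5 males (0.16) and Nanos1 in GS cells against spermatogonia (0.43), and calls appeared for Nanos3 in E13.5 against E10.5 females (−1.76), E13.5 males against females (1.87), oogonia against E17.5 females (−1.49), GS cells against spermatogonia (1.81) and testis against spermatogonia (−1.41), and for Dnd1 in spermatogonia against E17.5 males (−1.25). A common floor ended the calls of Nanos3 in E17.5 against E13.5 females (−0.89), spermatogonia against oogonia (1.21) and EG against ES cells (0.90), and Dnd1 in spermatogonia against E17.5 males passed (−0.96); it gave no value where both groups lay at the floor. Without a filter on dim genes, and with scan day as a block, both Nanos2 interactions (6.47 and −4.31) lost their calls, and with scan day Nanos3 in E17.5 males against females passed (1.19). Slide was fitted as a fixed block in the PGC arrays alone. With it, Nanos2 in E13.5 against E10.5 males (5.84) and Nanos3 in E17.5 against E13.5 females (−1.88) lost their calls. The Nanos2 interaction of E13.5 with E10.5 (6.47) lost its call too, and Nanos3 in E17.5 males against females passed (1.19). Fits of the compared groups alone, with fewer residual degrees of freedom, lost 6 calls. For Nanos2 these were E13.5 against E10.5 males (7.39), E17.5 against E13.5 males (−5.52), E13.5 males against females (7.15) and the interaction of E13.5 with E10.5 (6.47). For Nanos3 they were E17.5 against E13.5 males (−1.97) and females (−1.74), while Nanos3 in testis against spermatogonia passed (−1.15). The span of the 14 group means was 11.89 for Nanos2, against 10.59 with deposited values, 9.95 with quantile normalization, 7.47 with normexp, 3.51 with the floor and 10.56 with the probe mean. Its lowest group was not well above background, so the Nanos2 span has no exact value. For Nanos3 the span was 3.72, against 3.17 (deposited values), 2.39 (floor) and 5.39 (probe mean), and for Dnd1 5.33, against 6.47 (percentile over all probes), 6.26 (deposited values) and 6.03 (quantile). Leaving out 1 array kept direction and call in 207 of 236 values. Values that did not keep both ranged from −0.32 to 0.31 for Dnd1 in E13.5 against E10.5 males, −2.46 to −1.48 and −2.12 to −1.37 for Nanos3 in E17.5 against E13.5 males and females, −0.62 to 0.16 and −0.51 to 0.12 for Nanos3 and Dnd1 in E10.5 males against females, and 0.70 to 1.68 for Nanos3 in E17.5 males against females. The Nanos2 interactions ranged from 4.67 to 8.26 and from −5.11 to −3.51, and that of Nanos3 for E17.5 with E13.5 from −0.71 to 0.26. Nanos3 in oogonia against E17.5 females ranged from −0.73 to 0.0022, and Dnd1 in EG males against females from −0.083 to 0.13. In GS cells against spermatogonia the ranges were −0.35 to 2.32 for Nanos2, 0.34 to 2.01 for Nanos3, −1.32 to −0.28 for Dnd1 and −0.51 to 0.18 for Nanos1. Over all genes, the number of calls moved by more than 1.5 times in 16 of 18 comparisons with normexp, 14 of 18 with the compared groups alone, 12 of 18 with deposited values, 7 of 18 each with no filter and with the floor, 9 of 9 with scan day, 8 of 9 with slide, and in 44 of 92 values with 1 array left out. Of 216 counts of listed genes passing, 166 stayed within 1.5 times the reported count. With 2 arrays per group and Nanos2 well above background on 8 of 28 arrays, low levels of Nanos2 are limited by signal over background, and a group without it has only an upper bound.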

Other observations

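Across the 14 groups Nanos1 was most unlike Nanos3, with a Pearson correlation of group means of −0.21, against 0.18 with Nanos2 and −0.02 with Dnd1. Most of the Nanos2 readings were not well above background. EG cells had Nanos1 lower than E13.5 PGC by 1.16 ± 0.35 (limma, adjusted p = 0.0157), and testis had it lower than spermatogonia by 3.49 ± 0.50 (adjusted p = 3.02e-05). GS cells differed from spermatogonia in Nanos1 by −0.16 ± 0.50 (adjusted p = 0.862).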
